A study of Mus musculus with 6 samples.

Results

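The comparison described here sets E14 mouse embryonic stem (ES) cells carrying short hairpin RNAs (shRNAs) against both Dnmt3a and Dnmt3b beside E14 cells carrying a control shRNA. Its members are the autosomal cytosines of CpG sites that have a methylation level in both libraries, matched on chromosome, position and strand. There were 488742 such cytosines, which is 85.1% of the autosomal cytosines with a level in control, 90.2% of those in the double knockdown, and 66.7% of those with a level in any of the 6 libraries of the series. Across all chromosomes the series lists 750150 cytosines. The series profiled DNA methylation by reduced representation bisulfite sequencing (RRBS), in which MspI cuts genomic DNA at CCGG, short fragments rich in CpG are sequenced, and bisulfite leaves methylated cytosines as cytosine. RRBS reads 5-methylcytosine and 5-hydroxymethylcytosine alike, so a level is the sum of both.

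All cells were E14 ES cells, an established mouse line, and each group was 1 library. The other groups carried shRNAs against Dnmt3a alone, Dnmt3b alone, Dnmt1, or Tet1 and Tet2 together. The single Dnmt3a and Dnmt3b knockdowns are used below for side values. The Dnmt3b library and the Tet1 and Tet2 library also served to sort cytosines by level, since neither enters the comparison. The hairpin sequences, the days of knockdown, and whether a library came from a clone or a pool were not given in the sources used here. Transcript levels were not analysed here, so the degree of knockdown has no value in this account. The deposited levels come without read counts, and depth is therefore unknown, with no counting interval to give. With 1 library a side there is no replicate error and no test. The SD given beside a mean is over the 19 autosomes unless stated otherwise, and it describes the spread along the genome between these libraries only. In a bulk library, a lower level in every cell and a complete absence in some of the cells cannot be told apart.

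DNMT3A and DNMT3B are the de novo DNA methyltransferases: they add methyl groups to CpG sites without copying a methylated template strand. DNMT1 restores methylation on the new strand after replication, which is why methylation can outlast a shortage of the de novo enzymes for many divisions. In ES cells the de novo enzymes and the TET oxidases act on the same sites, and CpG-rich gene starts are mostly kept free of methylation, apart from those of germline genes and imprinted alleles.

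The sequences that follow carry the gene starts to which the results return. They are RefSeq promoter sequences of build GRCm38.p6, read 5′ to 3′ on the strand of the gene, cut to the part upstream of the start that spans the measured sites. Capitals mark the CpG sites with a level in both libraries. The positions in mm9, the build of the deposited levels, come from matching CpG spacing and context, and none was converted between builds. The first set holds the gene starts with the largest differences toward lower methylation. Tmprss12 encodes a membrane serine protease of the testis (chr15:100111199-100111267, plus strand), Lypd3 a cell surface protein of the LY6 and PLAUR family (chr7:25421465-25421588, plus strand), and Slc22a3 an organic cation transporter (chr17:12700658-12700820, minus strand).
Tmprss12: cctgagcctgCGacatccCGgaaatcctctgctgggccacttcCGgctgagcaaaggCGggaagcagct
Lypd3: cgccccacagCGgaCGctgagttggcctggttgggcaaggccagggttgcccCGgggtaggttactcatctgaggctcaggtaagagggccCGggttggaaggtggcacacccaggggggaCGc
Slc22a3: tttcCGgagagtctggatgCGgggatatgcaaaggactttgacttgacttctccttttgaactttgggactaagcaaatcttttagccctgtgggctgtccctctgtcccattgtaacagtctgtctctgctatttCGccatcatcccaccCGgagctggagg

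The second set holds 2 germline gene starts, 1 that was lower in the double knockdown and 1 that was not, and 1 imprinted locus. Hormad1 encodes a protein of the meiotic chromosome axis (chr3:95363471-95363598, plus strand), and Tex101 a germ cell surface glycoprotein (chr7:25457070-25457273, minus strand). Commd1 is an imprinted gene known to host the imprinted gene Zrsr1 in an intron (chr11:22872867-22873003, minus strand).
Hormad1: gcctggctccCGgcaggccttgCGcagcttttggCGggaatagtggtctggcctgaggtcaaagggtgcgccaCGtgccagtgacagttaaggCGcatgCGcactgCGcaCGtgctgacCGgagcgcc
Tex101: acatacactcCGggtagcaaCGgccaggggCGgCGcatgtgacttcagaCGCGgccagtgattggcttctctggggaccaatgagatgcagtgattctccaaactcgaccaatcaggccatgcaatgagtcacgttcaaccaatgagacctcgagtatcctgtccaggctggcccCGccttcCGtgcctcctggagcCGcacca
Commd1: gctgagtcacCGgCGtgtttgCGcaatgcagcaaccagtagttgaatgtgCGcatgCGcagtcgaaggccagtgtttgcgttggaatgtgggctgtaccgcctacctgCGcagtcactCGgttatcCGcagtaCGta

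Across the members the mean methylation level was 30.5% ± 1.69 in control and 27.3% ± 1.76 in the double knockdown. The difference was -3.24 ± 0.308 percentage points, or -10.6% of the control level, and the double knockdown was lower on 19 of 19 autosomes. Most of the genome read by RRBS carried little methylation in either library: the medians were 1.5% and 0.2%, and 41.3% of the members were at 0 in both. Of the members, 43.8% were lower in the double knockdown, 13.8% were higher and the rest were equal. Of single cytosines, 23943 were lower by at least 20 points, which is 4.9% of all members, and 2059 were higher by that much, which is 0.421%. At 50 points the counts were 547 lower (0.112%) and 26 higher (0.00532%).

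The cytosines at the top of the range thinned out and those in the middle grew in number. The share above 80% was 22.8% in control and 17.5% in the double knockdown, while the share from 20 to 80% was 16.0% and 18.7%. Of the cytosines above 80% in control, 29.1% lay between 20 and 80% in the double knockdown and 27 cytosines lay below 20%. Of those between 20 and 80% in control, 17.3% lay below 20% and 8.35% above 80%. Sorted on the double knockdown instead, 7.63% of the cytosines above 80% there lay between 20 and 80% in control. Of those between 20 and 80% in the double knockdown, 35.5% lay above 80% in control and 1.03% below 20%. Each sorting carries the chance highs and lows of its own library, so these shares are no measure of sites that lost methylation. A level of 0 was more frequent too, with 38945 cytosines at 0 in the double knockdown alone and 16116 at 0 in control alone. As depth is unknown, a level of 0 cannot be read as complete absence of methylation.

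Cytosines that one library lists and the other does not stand outside all of these values. The 85719 autosomal cytosines with a level in control only had a mean of 42.5%, above the mean of the members in control. The 53041 with a level in the double knockdown only had a mean of 34.3%, also above the members. Whether the differing lists bear on the difference was not tested.

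To see where in the range of levels the difference lay, the members were sorted into low (below 20%), intermediate (20 to 80%) and high (above 80%) by their level in the Dnmt3b knockdown library. Sorting on control itself would pick chance highs as high sites, which then read lower in any other library. Intermediate cytosines had the largest difference in points: 75217 of them averaged 56.3% in control and 45.5% in the double knockdown, a difference of -10.8 ± 0.732 points. High cytosines (111033) averaged 88.3% and 83.9%, a difference of -4.45 ± 0.399 points. Low cytosines (286835) averaged 1.46% and 0.664%, a difference of -0.793 ± 0.1004 points. All 3 classes were lower on 19 of 19 autosomes. The class was not known for 15657 members that had no level in the Dnmt3b library, and their mean difference was -3.18 points.

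Intermediate cytosines made up 15.4% of the members and 51.3% of the summed difference. They also held 64.01% of the cytosines lower by at least 20 points, 15327 in number, beside 773 that were higher by that much. Of the intermediate cytosines, 83.3% were lower to any degree and 20.4% were lower by at least 20 points. Relative to control, the order of the classes was another: low cytosines differed by -54.4%, intermediate ones by -19.2% and high ones by -5.04%. The low class lay near 0, at 1.46% and 0.664%, so its percentage rests on a difference of -0.793 points.

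Finer steps of the starting level, taken from the Tet1 and Tet2 library, gave a smooth curve. Sites above 0 and up to 5% in that library kept 40.7% of their control level in the double knockdown. Sites from 20 to 30% kept 55.8%, sites from 50 to 60% kept 74.4%, and sites from 95 to 100% kept 96.5%. In points the difference was largest, -13.0, at 50 to 60%. With steps taken from the Dnmt3b library instead, the largest difference was -13.3 points at 40 to 50%, and sites from 95 to 100% kept 97.1%. In each step of both series the double knockdown was lower than control on 19 of 19 autosomes.

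**Figure D1:**
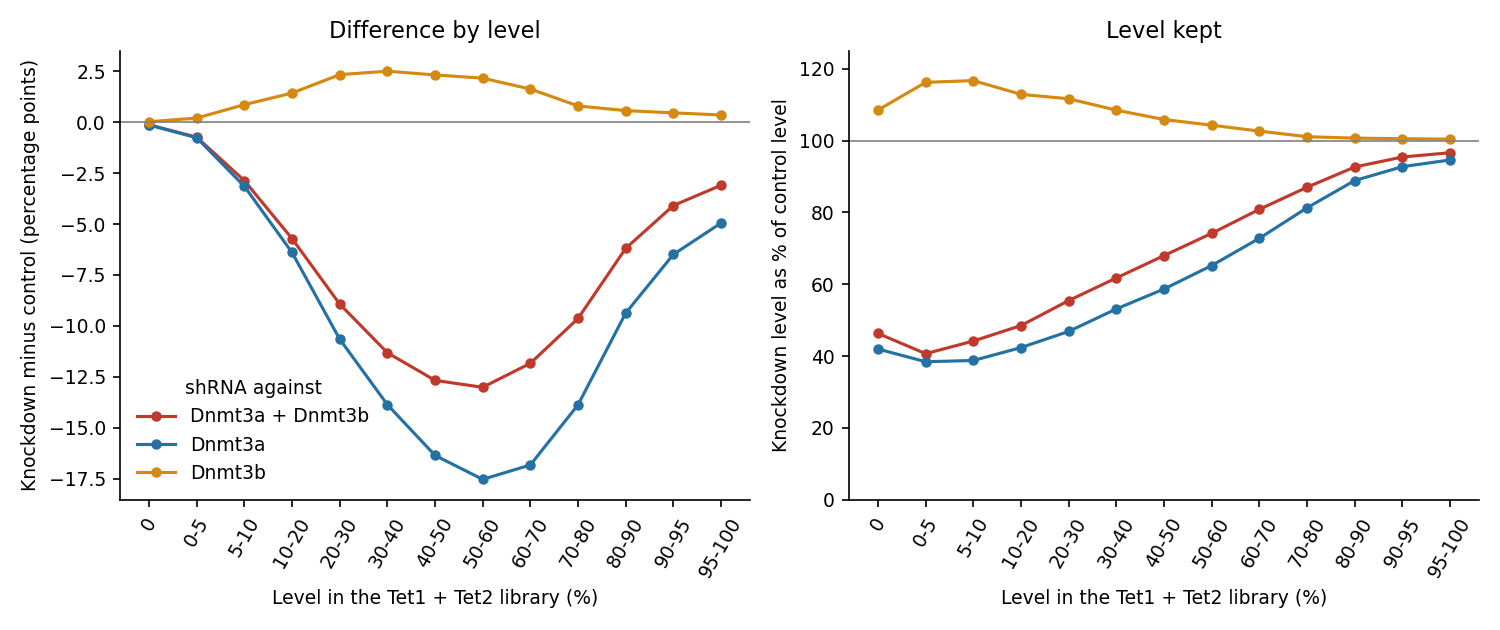
Left: mean difference from control in percentage points against the methylation level in the Tet1 + Tet2 library in steps of percent, for the double knockdown and both single knockdowns, over cytosines with a level in all 4 libraries. Right: the same means as percent of the control level. The double knockdown is lowest in points at 50 to 60% (-13.0), keeps 40.7% of the control level at 0 to 5% and 96.6% at 95 to 100%, and lies between the Dnmt3a and Dnmt3b curves at each step.

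The difference was spread over the whole genome. By autosome it ran from -3.65 points on chromosome 15 to -2.74 on chromosome 13, with a median of -3.17. For intermediate cytosines it ran from -12.2 points on chromosome 19 to -9.60 on chromosome 16. In windows of 5 Mb that held at least 50 intermediate cytosines, 381 of 381 had a mean below control, from -15.6 to -4.76 points with a median of -10.3. The X chromosome, which is outside the members, went from 35.2% in control to 32.5% over 10005 cytosines.

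**Figure D2:**
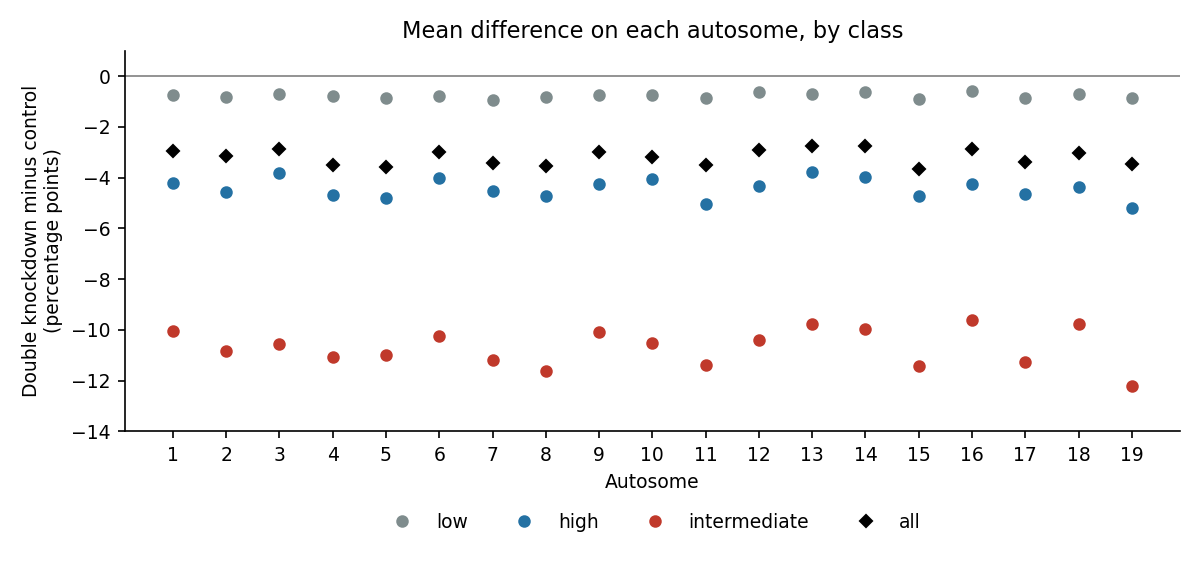
Mean difference between the double knockdown and control in percentage points on each of the 19 autosomes, for low, intermediate and high cytosines (classes from the Dnmt3b library) and for all members (diamonds). Intermediate cytosines lie between -12.2 and -9.60 points on the autosomes, below high and low ones on each.

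The size of the difference varied with the bases around the CpG, though all flanks were lower. DNMT3A and DNMT3B are known to prefer certain bases beside the CpG, and the preferences of the pair are not the same. Among intermediate cytosines, those followed by T (CGT) differed by -11.7 points, those followed by A by -10.5, by C by -10.6 and by G by -10.7. The difference of CGT from CGG was -1.02 ± 0.694 points and had that sign on 17 of 19 autosomes. Among high cytosines it was -0.948 ± 0.445 points, with that sign on 19 of 19. Among low cytosines it was 0.0864 ± 0.0881 points and below 0 on 2 of 19 autosomes. Of the 45806 intermediate CGG cytosines, 35294 lay in CCGG, the MspI site, at -10.4 points, beside -11.5 for CCGT. After A, CGG and CGT stood at -11.8 and -12.5, after G at -12.4 and -12.2, and after T at -10.7 and -10.6. Intermediate CGT was thus lower than CGG after C and A only. Among high cytosines CGT was lower after C, A and T, with -4.73 for GCGG and -4.67 for GCGT. The share of MspI sites in the contrast was not tested.

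The bases before the CpG went with wider gaps. Intermediate cytosines in ACG differed from those in TCG by a further -1.54 ± 0.829 points, on 19 of 19 autosomes. With the base before that, TACG stood at -14.1 points and ATCG at -8.35, and the gap of -5.72 ± 2.32 points had this sign on 19 of 19 autosomes. When each cytosine was set against the mean of its own level step, the gap was -5.56 points. TACG and ATCG were the lowest and highest of all pairs of bases before the CpG, and ACG and TCG of all single bases. These contrasts join the ends of a range seen in the same values, so their width and steady sign are descriptions only. The gap of GACG against GTCG was -3.001 ± 1.56 points for intermediate cytosines, on 18 of 19 autosomes, and -1.76 ± 0.820 for high ones, on 19 of 19.

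Of the 64 flanks made of 2 bases before and 1 base after the CpG, 64 were lower in the double knockdown among intermediate cytosines. The median was -10.9 points. The lowest was taCGt, with 202 cytosines at 49.97% in control and 35.3% in the double knockdown, a difference of -14.7 points. Its relatives taCGa and taCGc stood at -14.5 and -14.4, followed by gaCGt at -14.05, gaCGg at -13.8 and ggCGg at -13.5. At the other end were cgCGa with -6.97 points over 308 cytosines (47.7% and 40.7%), atCGa with -7.57 and atCGt with -7.99. Across the 64 flanks, the means over odd-numbered autosomes and those over even-numbered ones had a Pearson r of 0.726, which describes the 2 libraries and carries no test. In the Dnmt3a knockdown the same flanks differed from control by -21.0 points for taCGt and -11.3 for atCGa, but both comparisons share the control library.

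CpG sites read on both strands allow the measurement to be repeated, since the strands come from different molecules of a library. There were 9258 such sites, whose cytosines are 3.79% of the members. The 1394 intermediate sites averaged 55.4% in control and 43.7% in the double knockdown, a difference of -11.7 ± 1.17 points, with -11.2 on the plus strand and -12.2 on the minus strand. On the plus strand, 294 intermediate sites stood 20 points or more below control. Their minus strand was below control at 268 of them, with a mean of -15.3 points, and 20 points or more below at 97. The plus strand stood 20 points or more above control at 15 sites, and the minus strand was above control at 4 of these, at 0 of them by 20 points. Their minus strand had a mean of -8.11 points. Over all 1394 intermediate sites the minus strand was below control at 1204 (86.4%) and 20 points or more below at 322 (23.1%), so a minus strand below control was the usual case.

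The 2 strands of the same CpG differed from each other by 6.34 points at high sites in control and by 8.04 points in the double knockdown. This gap was wider by 1.70 ± 0.936 points, on 18 of 19 autosomes, over 1790 sites. It was 7.33 points in the Dnmt3a library and 6.05 in the Dnmt3b library. At intermediate sites the strand gap was 9.91 points in control and 9.79 in the double knockdown. The gap at a site includes the counting error of each strand, which moves with depth and with the level itself, and its part in the wider gap was not tested.

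Up to 50 bp apart, intermediate cytosines on the same strand differed from control by more similar amounts than those on opposite strands, and from 51 to 250 bp by less similar ones. Over 11514 pairs of intermediate cytosines 1 to 10 bp apart on the same strand, the differences had a Pearson r of 0.457. It was 0.388 at 26 to 50 bp, 0.0718 at 51 to 100 bp and 0.105 between 100 and 250 bp. On opposite strands, which come from different molecules, it was 0.141 at 1 to 10 bp, 0.106 at 51 to 100 bp and 0.132 between 100 and 250 bp. These pairs share their libraries and, on the same strand, their molecules, so the values are descriptions without a test.

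**Figure D3:**
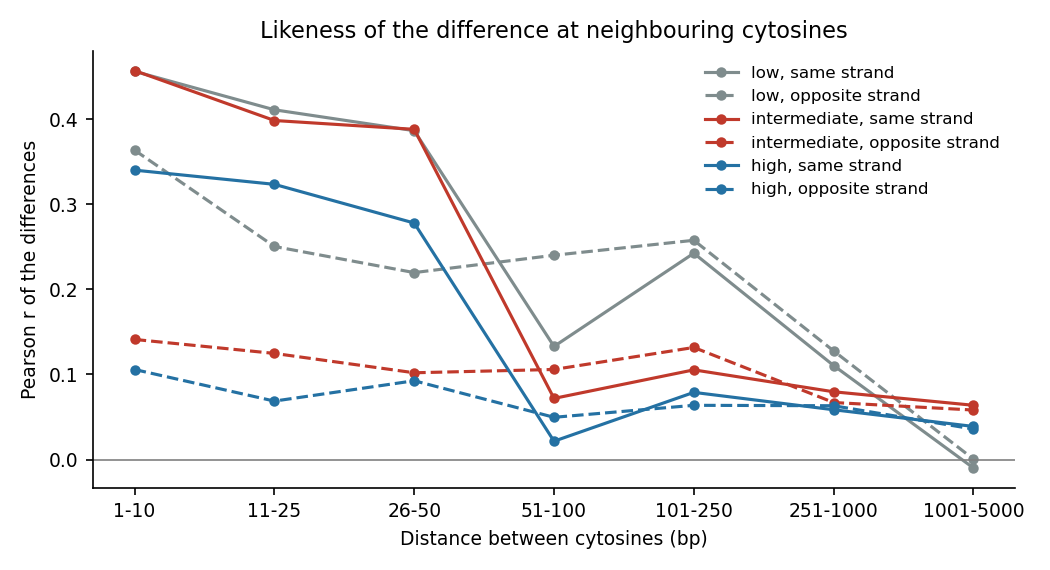
Pearson r of the difference from control at pairs of cytosines, against the distance between them in base pairs, for low, intermediate and high cytosines on the same strand (solid) and on opposite strands (dashed). For intermediate cytosines r is 0.457 at 1 to 10 bp on the same strand and 0.0718 at 51 to 100 bp, beside 0.141 and 0.106 on opposite strands.

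Averaging over neighbours gives steadier values than single cytosines. Members at most 100 bp apart were joined into clusters, and 28704 clusters had at least 5 cytosines. A cluster was called when its mean differed by at least 20 points and at least 80% of its cytosines lay in that direction. By this rule 516 clusters were lower (1.8% of all) and 4 were higher (0.0139%). Of the 4176 intermediate clusters, 94.4% had a mean below control, 459 were called lower, and the mean difference was -11.2 points with an SD of 7.42 over clusters. High clusters (4733) averaged -4.62 points with 42 called lower, and low clusters (19409) had 8 called lower. Within the intermediate class the means lay close together across CpG density: from the sparsest to the densest quartile the means were -11.5, -11.2, -11.1 and -11.0 points, each with an SD over clusters between 6.90 and 8.40.

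The strands could be set side by side in the 15512 clusters that had 3 or more cytosines on both. In 236 of them the plus strand stood 20 points or more below control. The minus strand of these had a median of -12.9 points, and it was below control in 224 and past 20 points in 57. In another 3 the plus strand stood 20 points or more above control, and the minus strand was above control in 0 of them. Among these clusters, 57 were called lower with both strands past 20 points, and 0 were called higher with both past 10. Of all intermediate clusters, 94.4% had a mean below control, and their mean difference was -11.2 points. The share of the 15512 clusters with a minus strand below control was not taken, so the 224 cannot be read as agreement between strands.

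The largest difference among the clusters with both strands past 20 points lay at chr6:28368561-28368661, with 6 cytosines at 62.8% in control and 19.4% in the double knockdown. Its strands were unequal, at -63.7 points on the plus strand and -23.0 on the minus strand. The nearest placed gene start was that of Gcc1, a Golgi coiled-coil protein, 3063 bp away, with the cluster downstream of it. A cluster at chr7:148377838-148377952 had 52.2% in control and 22.2% in the double knockdown, 1951 bp downstream of the start of Hras, the small GTPase. Another at chr2:90623826-90623957 had 67.8% and 37.9%, 431 bp downstream of the start of Agbl2, a tubulin carboxypeptidase.

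The remaining 3 of the 6 clusters named by this rule stood between -29.7 and -28.9 points from control. A cluster of 9 cytosines at chr13:112593630-112593797, 5404 bp downstream of the start of the kinase gene Map3k1, had 63.8% in control and 34.9% in the double knockdown. One at chr11:117178723-117178882 had 52.7% and 23.0%. The last, at chr4:41609032-41609135, was nearly fully methylated in control at 89.3% and stood at 59.7% in the double knockdown, beside 84.4% in the Dnmt3a library and 92.1% in the Dnmt3b library. For the other 5, the Dnmt3a library stood between 19.8% and 43.6%, below control in each. The Dnmt3b library stood between 37.5% and 60.3%, below control in all but the cluster on chromosome 11, where it had 58.1%. As these clusters were picked for their size, their differences are likely larger than a repeat would give.

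The 4 clusters called higher were small, and 3 of them lay on 1 strand. One at chr3:7863246-7863283 had 61.8% in control and 85.4% in the double knockdown, on the plus strand alone. The Dnmt3a library had 73.95% there and the Dnmt3b library 83.3%. One at chr10:85938416-85938516 had 53.5% and 75.6%, and it was higher on both strands, by 21.1 points over 4 cytosines and 24.2 over 2. The Dnmt3a library had 55.1% there and the Dnmt3b library 85.4%. One at chr4:139776458-139776564 had 16.0% and 36.8%, beside 19.05% in the Dnmt3a library and 26.65% in the Dnmt3b library. At each of these clusters control thus lay below both single knockdowns too. The fourth, at chr8:83263425-83263455, lay 67 bp upstream of the start of Smarca5, the ATPase of ISWI chromatin remodelling complexes, and is described with the gene starts. All 4 were picked for their size, so their differences too are likely larger than a repeat would give.

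Gene starts were examined through RefSeq promoter windows, from 250 bases before to 50 bases after the start. Of 32851 windows, 7916 could be placed on mm9 from CpG spacing and context, and 99.7% of those fell on the chromosome that the table gives, which the match had not used. The others were dropped. That left 5201 genes with at least 5 member cytosines, on autosomes other than chromosome 18, which was not analysed here for gene starts. Most were unmethylated: 5094 stood below 20% in control, with a mean of 0.546% in control and 0.250% in the double knockdown. The 82 windows from 20 to 80% in control averaged 46.2% and 37.1%, with 75 lower and 7 higher. The 25 windows above 80% averaged 87.7% and 82.8%. Sorting on control carries its chance highs and lows into these classes, as it would for cytosines. With classes on the Dnmt3b library, 91 intermediate windows averaged 42.1% in control and 33.5% in the double knockdown, with 82 lower and 8 higher. The 26 high windows of that sorting averaged 86.4% and 81.3%.

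By the rule used for clusters, 3 promoter windows were lower by at least 20 points, 0.0577% of those measured, and 1 was higher, 0.0192%. At 10 points 50 were lower (0.961%) and 1 was higher (0.0192%).

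Tmprss12 averaged 52.0% in control and 28.0% in the double knockdown over 6 cytosines, beside 21.5% in the Dnmt3a library and 53.9% in the Dnmt3b library. Its difference was -24.0 points with an SD of 1.91 over the cytosines, and all 6 were lower. The 4 capitals printed above correspond to 61.1, 53.5, 37.4 and 46.7% in control and, in the same order, 39.1, 29.5, 13.5 and 24.6% in the double knockdown. The plus strand gave -24.5 points and the minus strand -23.0, so the measured sites were lower by similar amounts on both strands.

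Slc22a3 averaged 72.9% in control and 51.5% in the double knockdown over 5 cytosines, beside 44.8% in the Dnmt3a library and 63.8% in the Dnmt3b library. Its difference was -21.4 points (SD 8.49 over cytosines), and the CpG farthest upstream gave 100% and 63.6% on the plus strand and 72.4% and 55.0% on the minus strand. Lypd3 averaged 38.2% and 16.97% over 6 cytosines, beside 17.9% in the Dnmt3a library and 30.1% in the Dnmt3b library. Its single sites varied more, from a difference of -29.7 points at the first capital to -8.60 at the second. All cytosines of both genes were lower than in control, on both strands.

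Smarca5 was the promoter window called higher. It averaged 61.4% in control and 82.3% in the double knockdown over 5 cytosines, beside 42.6% in the Dnmt3a library and 79.3% in the Dnmt3b library. Its cytosines all lay on the minus strand within 31 bp, so the value has no second strand to set beside it.

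Of the gene lists, that of germline genes had the largest number of starts at 20% or more in control, though 2 of the 3 tissue-restricted genes measured were also above that level. Of 86 genes on that list 20 were measured, and 12 of these stood at 20% or more in control. Of the 12, 10 were lower in the double knockdown, with a median difference of -4.05 points. Over all 107 measured windows at 20% or more in control, 98 were lower and the median was -8.03 points. Both sets were picked on their control level, which by itself leans toward lower values in the double knockdown. The 6 germline genes highest in control were Tex101, Dazl, Fkbp6, Tuba3b, Asz1 and Topaz1.

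Tex101 averaged 85.8% in control and 86.7% in the double knockdown over 11 cytosines, beside 75.8% in the Dnmt3a library. Its sites scattered in both directions, with 4 lower and 7 higher and an SD of 13.4 points over cytosines. Dazl, which encodes an RNA-binding protein of germ cells, averaged 82.6% and 70.9% over 8 cytosines of the minus strand. Its difference of -11.8 points was no call, since 6 of the 8 were lower, short of 80%. Fkbp6, needed for meiosis in males, averaged 79.8% and 79.4%, with 1.90 points on the plus strand and -1.32 on the minus strand. Tuba3b, a testis tubulin, averaged 78.1% in control and 74.96% in the double knockdown. Asz1, a component of the piRNA pathway, averaged 68.3% and 64.01%, and Topaz1, a testis and ovary protein, 53.1% and 49.3%. For both the sign depended on the strand: Asz1 gave 4.72 points on the plus strand and -11.9 on the minus strand, and Topaz1 gave 2.20 and -11.3.

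Hormad1 was the only germline window called lower at 10 points, and it is named here because of its value. It averaged 36.6% in control and 21.4% in the double knockdown over 9 cytosines, beside 23.0% in the Dnmt3a library and 38.8% in the Dnmt3b library. All 9 were lower, from -26.1 to -3.0 points, and they are the 9 capitals printed above. The remaining germline windows at 20% or more, named after their values were seen, ran from Slc25a31 (44.2% in control, 37.5% in the double knockdown) to Ddx4, the germ cell RNA helicase (21.1% and 18.5%). Between them lay Mael (23.5% and 15.8%), Hormad2 (23.0% and 25.8%) and Dmrtb1 (21.6% and 16.2%). The E-box letters CACGTG occur in 8 of the 20 measured germline windows, Hormad1 among them, and in 11.5% of all measured windows. The letters TTCCCGC occur on either strand in 7 of the 20 and in 10.9% of all. The motif counts describe the windows and were set against no level.

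Imprinted genes were nearly all outside the measured windows or unmethylated there. Of 52 genes 9 were measured, and 2 stood at 20% or more in control, both with a higher mean in the double knockdown. Commd1 averaged 49.9% in control and 53.1% in the double knockdown over 12 cytosines, beside 43.4% in the Dnmt3a library and 46.2% in the Dnmt3b library. Its plus strand gave 9.43 points and its minus strand -5.46, so the sign of the mean depends on which strand is read. Mcts2, an imprinted retrogene within H13, averaged 23.9% and 26.1% over 14 cytosines, with 13 of them higher. Its strands gave 2.90 and 1.95 points.

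Genes of several other lists stood near 0 at their starts. The 6 measured pluripotency genes, Fgf4, Gbx2, Sox2, Stat3, Tet1 and Tet2, had at most 0.107% in control and 0.214% in the double knockdown. The 16 measured genes of the methylation machinery were all under 5% in control, with Dnmt3a at 0.0625% and 0%, Dnmt1 at 0% in both and Tet3 the highest at 3.14% and 0%. The 15 housekeeping genes had at most 0.282% in control. Of the trophoblast and 2-cell genes 2 were measured, Ascl2 with 1.03% and 0.300%, and Ets2 at 0% in both libraries. Of 58 clustered protocadherin genes 0 were measured.

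Of the 6 measured Hox genes and the 20 measured lineage transcription factors, 0 were called at 10 points, and 5 and 16 of them stood under 5% in control. Over all 5201 windows 0.961% were lower and 0.0192% higher at 10 points, so the 0 is no result about these lists. The list medians were -0.888 and -0.0603 points. The windows with more, named after their values were seen, included Hoxa5, with 13.2% in control and 3.17% in the double knockdown, and Foxa2, an endoderm factor, with 9.58% and 2.54%, both lower at all cytosines. Tbx1 had 17.6% and 10.9%, with 5 cytosines lower and 4 higher and an SD of 15.8 points around its difference of -6.66. Among the 3 measured tissue-restricted genes, Ckm, the muscle creatine kinase, had 85.3% in control and 78.0% in the double knockdown, and Acta1, the skeletal muscle actin, had 71.9% and 63.0%.

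Among the 50 windows lower by 10 points or more, 6 are given as examples, chosen after their values were seen and representing no list. Epo, which encodes erythropoietin, had 34.3% in control and 15.4% in the double knockdown. Lep, which encodes leptin, had 53.0% and 39.9% over 10 cytosines, all lower. Cyp2r1, a vitamin D hydroxylase, had 29.4% and 12.4%, and Gal, which encodes galanin, 21.2% and 7.87%. Pax5, the B-cell transcription factor, had 22.3% and 12.2% over 5 cytosines of 1 strand. Lcat, the plasma cholesterol acyltransferase, was high in control at 91.0% and had 76.9% in the double knockdown.

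Other methylated starts had means close to those in control. By the rule for starts above 80% in both control and the Dnmt3b library, the 6 with the smallest difference were Tex101, 1700027A15Rik, Gm38744, A1cf, Gm41358 and 4930594O21Rik. Gm38744 had 90.4% in control and 89.2% in the double knockdown, and 1700027A15Rik had 88.0% and 86.9%. A1cf, an RNA-binding cofactor of mRNA editing, had 86.6% and 85.2% in the mean, made of 3.28 points on the plus strand and -13.0 on the minus strand. With 5 to 11 cytosines each and no depth, these small means cannot show that nothing differed.

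**Figure D4:**
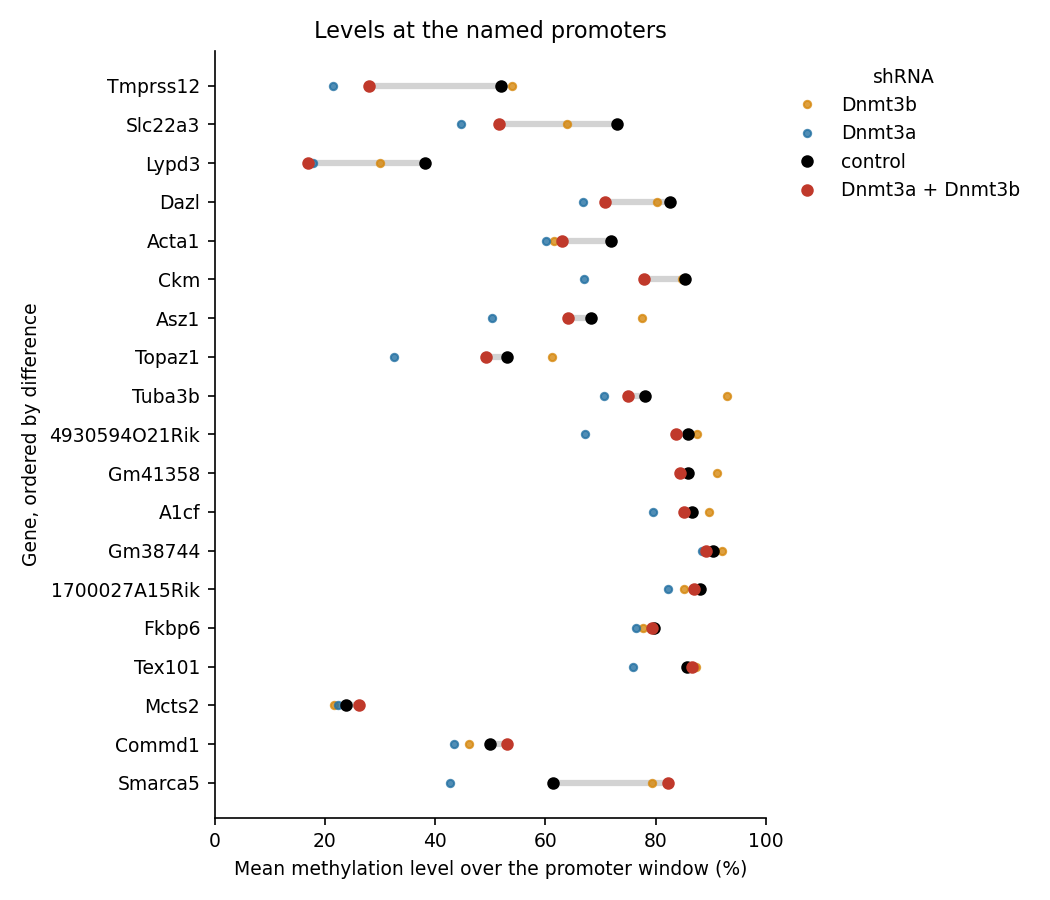
Mean methylation level in percent over the promoter window of each named gene, in control (black), the double knockdown (red), and the Dnmt3a (blue) and Dnmt3b (orange) knockdowns, 1 library each (A1cf in the Dnmt3a library rests on 5 of its 7 cytosines); grey bars join control and double knockdown. Tmprss12, Slc22a3 and Lypd3 have the longest bars toward lower levels, and Smarca5 (61.4% to 82.3%) the longest toward higher ones.

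Around the placed gene starts the difference followed the valley of methylation. In the 500 bp after the start the mean level was 0.909% ± 0.307 in control and 0.584% ± 0.257 in the double knockdown, over 59418 cytosines (SD over the 18 autosomes with placed starts). From 500 to 1000 bp it was 2.81% and 1.63%, a relative difference of -42.0%. From 1500 to 2000 bp it was 21.5% and 16.3%, and from 4500 to 5000 bp 41.6% and 34.2%, a difference of -7.41 points. On the upstream side the level reached 31.3% and 26.4% at 4500 to 5000 bp. Intermediate cytosines were a smaller share of those within 500 bp of a start, 1.015% downstream and 1.501% upstream, beside 3.58% and 4.56% in the next 500 bp. Near the start they differed by -9.47 points downstream and -10.02 points upstream, and in the next 500 bp by -13.9 and -15.2 points.

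**Figure D5:**
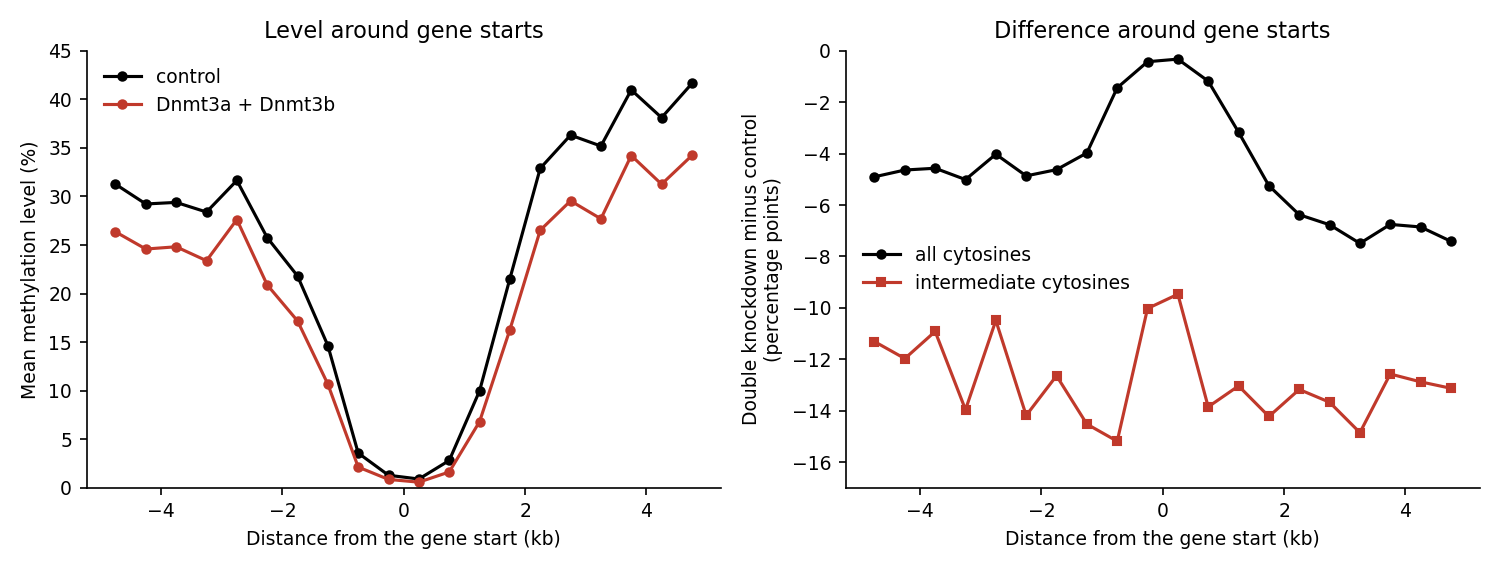
Left: mean methylation level in percent in control and in the double knockdown, in steps of 500 bp against the distance from the gene start in kb, negative being upstream. Right: the difference in percentage points for all cytosines and for intermediate ones, which stand at -9.47 and -10.02 points in the steps beside the start and at -13.9 and -15.2 points in the next.

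Distance from placed starts was read against all clusters of the same kind. Of the 506 lower clusters on chromosomes with placed starts, 2 lay over a start, 10 within 1 kb and 48 within 5 kb, and the median distance was 49956 bp. Of all 27892 clusters on these chromosomes 33.0% lay within 5 kb. Among intermediate clusters, 376 of 4082 (9.21%) lay within 5 kb, and of those called lower 45 of 451 (9.98%), so these shares were alike. The median distance was shorter for the called ones, at 49364 bp beside 70428 bp for all intermediate clusters. Only windows with enough listed cytosines could be placed, so a start that was not placed may lie nearer.

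The double knockdown was set beside the single knockdowns over the 462267 members with a level in both of them. Classes were taken from the Tet1 and Tet2 library where it had a level. Control averaged 30.7%, the double knockdown 27.4%, the Dnmt3a knockdown 26.1% and the Dnmt3b knockdown 31.1%. The double knockdown thus lay above the Dnmt3a library by 1.27 ± 0.106 points, and on 0 of 19 autosomes was it the lower of the pair. Among intermediate cytosines the gap was 3.79 ± 0.417 points, with 41.4% in the double knockdown and 37.7% in the Dnmt3a library. Among high cytosines it was 2.64 ± 0.186 points, and among low ones 0.0637 ± 0.0222 points. Against the Dnmt3b library the double knockdown was lower by 3.73 points in the mean and lower on 19 of 19 autosomes. At intermediate cytosines it stood at -12.6 ± 0.544 points from the Dnmt3b library, which had 54.0%. Whether the dose of each hairpin differed between the single and the double knockdown was not tested.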

How the data were processed

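RRBS levels of 6 E14 libraries were used, 1 per group. The authors deposited methylation fractions from 0 to 1, with 3 decimals, per CpG cytosine and strand, with 5 bases of context and no counts. Per the submitters' processing notes, mm9, Bismark 0.10.1 and CASAVA 1.8 were named, without a role. Coverage minimums and filters were not given in the sources used here. Fractions were multiplied into percent, and cytosines without a level were left out. The control library had 574461 autosomal cytosines with a level and the double knockdown 541783. Without coverage, tests on counts and coverage minimums could not be run, and sites of any depth weigh alike. One sample is titled Dnmt1a and labelled Dnmt1, and its library enters only medians and sets over 6 libraries.

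Cytosines were joined by chromosome, position and strand in Python 3.11.15 (NumPy 2.4.6, pandas 2.3.3). Figures were drawn in matplotlib 3.10.9. RefSeq promoter windows (GRCm38.p6) were placed where at least 5 listed cytosines fell on a CpG of the window on the right strand with the right context, at least 90% of the listed ones did so, and no other place came near that number. The plan asked for an exact match; 95.8% of the placed windows had one, and the order of neighbouring starts held for 99.9% of 7873 pairs. Cluster calls and the contrast between flanks were tested on simulated levels. Placement was rerun on windows that had already been placed and on scrambled ones, with the real positions. Differences were rounded to 0.1 point before counting.

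Members and lists were chosen with earlier results of these data known. Named promoters were list members at 20% or more in control, up to 6 a list by control level, those called lower or higher, and up to 6 at 80% or more in control and the Dnmt3b library with the smallest difference. Named clusters were up to 6 called lower with both strands past 20 points, and those called higher; the plan's rule for gains on both strands gave 0, so the 4 called higher were named after their values were seen. Alternatives covered other sets, classes, sizes, gaps and minimums.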

Additional observations from a re-analysis of the deposited data

Results flagged for a closer look

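Mitochondrial DNA lies outside the comparison and is commonly used as a check of bisulfite conversion. Over 129 mitochondrial cytosines with a level in both libraries, control was at 0% throughout and the double knockdown had a mean of 0.0783%, from 2 cytosines above 0, the higher at 6.7%. The value is listed because it exceeds the level in control. It is small beside the mean difference of the members, and its cause was not tested.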

How the results depend on the processing

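Of 46 alternative values of the main results, 22 stayed close to the main value, 24 moved and 0 changed sign. Means were taken as close when within the SD of the main value. Counts have no SD and no sign, and were judged by their ratio to the main count. Without cytosines at 0 in both libraries the mean difference was -5.52 points. With classes on the median of the 6 libraries the low class differed by -1.03 points and the high class by -3.54, and the double knockdown exceeded the Dnmt3a library at intermediate cytosines by 4.27 points. With classes on the Tet1 and Tet2 library the high class differed by -4.85 points. With classes on control, which bring regression to the mean, the low, intermediate and high classes differed by -0.648, -9.28 and -5.96 points. At 10 points 72942 cytosines were lower (14.9%) and 9665 higher (1.98%), and at 30 points 6982 (1.43%) and 501 (0.103%). Clusters called lower and higher numbered 1615 and 21 with at least 3 cytosines, 35 and 0 with at least 10, 2959 and 26 at 10 points, and 53 and 0 at 30 points. Promoters called lower numbered 7 with at least 3 cytosines, 0 with at least 10 and 50 at 10 points, and those called higher 0 with at least 10 cytosines. At other sizes the numbers tested stayed at 28704 clusters and 5201 windows. Fewer clusters and windows meet a larger minimum. How many met a minimum of 3 or 10 is not given here, so those counts cannot be read as shares.

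Of 34 values of named promoters on other choices, added after the data were seen like the strand-wise values, 32 lay within the SD over the cytosines of the window and 2 did not: on the minus strand alone A1cf differed by -13.0 points and Commd1 by -5.46. The sign changed in 7 of the 34, none of them at a called promoter: on the plus strand alone for Asz1 (4.72), A1cf (3.28), Topaz1 (2.20), Fkbp6 (1.90) and Gm38744 (0.475), and on the minus strand alone for 4930594O21Rik (3.03) and Commd1. No paired analysis was possible because each group had 1 library, and for the same reason no library could be left out. Without read counts, the precision of single levels is unknown, and differences of a few points at windows of 5 or 6 cytosines cannot be set against counting error.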

Other observations

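Cytosines on contigs without a chromosome lie outside the members. Over 1136 of them the mean level was 59.4% in control and 57.1% in the double knockdown.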
